A study of Mus musculus with 6 samples.

Results

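The genes described here encode the proteins of the cytosolic and the mitochondrial ribosome. Members were picked by symbol alone, but the set itself was chosen with earlier results of these data known. The rule took symbols of the form Rpl or Rps with a number for the cytosolic ribosome, without pseudogene and S6 kinase symbols. For the mitochondrial one it took symbols of the form Mrpl or Mrps with a number. This gave 134 of the 19938 genes measured, 57 cytosolic and 77 mitochondrial. By symbol, 35 cytosolic genes belong to the large and 22 to the small subunit, and 48 mitochondrial genes to the large and 29 to the small subunit. A further 17 cytosolic symbols, among them Rpl3, Rpl32, Rps16 and Rps24, and 1 mitochondrial symbol (Mrpl53) lay only on probe sets annotated to several genes and were not counted.

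Total RNA of epithelial cells isolated from mouse small intestine at stage E18.5 was hybridised to Affymetrix Mouse Gene 1.0 arrays. Of the 6 arrays, 3 came from controls and 3 from mice with a double conditional knockout (cKO) of Gata4 and Gata6, which encode GATA-binding transcription factors active in the developing gut. The sources used here do not give the Cre driver, the floxed alleles, the genotype of the controls or the strain. Nothing in the labels says that the arrays of a group held separate animals, so a p-value here reflects the spread among samples, which could be only technical.

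A ribosome joins amino acids into protein, with ribosomal RNA at its core and many proteins around it. Cytosolic ribosomes make nearly all proteins of the cell, and their protein genes, among the most strongly expressed in growing tissue, tend to be regulated together. Mitochondrial ribosomes sit inside the organelle, make the few respiratory chain subunits that mitochondrial DNA encodes, and are built from proteins made in the cytosol from nuclear genes. Many of their proteins have bacterial relatives, while others have none. Cytosolic ribosomal protein mRNAs typically begin with a run of pyrimidines, through which the mTOR pathway adjusts their translation.

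The start regions of 3 genes of each ribosome are printed to show the features counted in the next paragraph. They are the genes with the smallest p-values for which RefSeq (GRCm38.p6) lists a promoter and the probe set lies near its gene (see the placement check in the next paragraphs). Each runs from 60 bases before the first listed start to 20 bases after it, 5′ to 3′ on the gene's strand. Capitals mark a run of at least 7 pyrimidines (cytosine or thymine) within 20 bases of the start, or the ETS factor motif CCGGAAG on either strand. The first 3 belong to the cytosolic ribosome: Rpl12 (chr2:32961652-32961731, plus strand), Rps21 (chr2:180257319-180257398, plus strand) and Rpl22 (chr4:152325666-152325745, plus strand). The others are mitochondrial: Mrpl46 (chr7:78783070-78783149, minus strand), Mrps36 (chr13:100744640-100744719, minus strand) and Mrpl52 (chr14:54426849-54426928, plus strand). Rpl22, Mrpl46 and Mrps36 hold no marked feature in these windows.
Rpl12: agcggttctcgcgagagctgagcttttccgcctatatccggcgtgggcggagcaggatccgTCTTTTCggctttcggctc
Rps21: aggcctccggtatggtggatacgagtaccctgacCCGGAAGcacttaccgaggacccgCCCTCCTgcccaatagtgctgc
Rpl22: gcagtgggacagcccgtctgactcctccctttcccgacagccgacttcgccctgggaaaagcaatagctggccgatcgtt
Mrpl46: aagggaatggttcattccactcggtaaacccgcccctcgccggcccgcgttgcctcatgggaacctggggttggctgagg
Mrps36: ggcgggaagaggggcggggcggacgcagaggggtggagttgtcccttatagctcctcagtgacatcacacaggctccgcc
Mrpl52: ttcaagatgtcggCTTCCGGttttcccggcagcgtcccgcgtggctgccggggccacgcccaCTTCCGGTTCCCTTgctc

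The table holds a promoter (250 bases before to 50 after a start) for 114 of the 134 genes, 46 cytosolic and 68 mitochondrial. A pyrimidine run at the start was present in 25 of 46 cytosolic genes (54.3%), in 16 of 68 mitochondrial genes (23.5%) and in 27.5% of all genes in the table. The length of 7 was set after sequences had been seen. CCGGAAG, on either strand and anywhere in the promoter, was as frequent in both sets, in 17 of 46 cytosolic (37.0%) and 25 of 68 mitochondrial genes (36.8%). The share was 9.93% of all genes in the table and 13.6% of the 15562 measured ones. The GATA motif AGATAA was found in 5 cytosolic (10.9%) and 11 mitochondrial promoters (16.2%). It was found in 12.7% of all genes in the table and 10.8% of the measured ones. Motif matches describe the letters only and are no evidence of binding.

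The arrays labelled cKO did not show lower Gata4 or Gata6. Gata4 read 10.95, 10.93 and 10.96 on the control arrays and 11.34, 11.39 and 11.51 on the cKO arrays, a rise of 0.47 ± 0.07 (SE) on the log2 scale (limma adjusted p = 0.0101). Gata6 rose by 0.45 (adjusted p = 0.0067). Both calls were kept with any 1 array left out, and ended without control 3 and cKO 2, the arrays with the most hepatocyte signal (adjusted p = 0.0646 and 0.0503). A probe set sums probes along the whole gene and the deleted parts are not given, so this checks neither the knockout nor the labels, and directions below are those of the arrays labelled cKO. The 10 epithelial markers were between 10.94 and 13.31 on every array. Hepatocyte markers stood apart on 2 arrays: the mean of 12 was 11.2 on control 3 and 12.8 on cKO 2, and 8.32 to 9.79 on the other 4. The 5 erythroid markers averaged 9.85 on cKO 2 and 6.76 to 8.20 elsewhere, and 9 immune markers 9.42 against at most 8.29. None of these markers was listed at 0. The effect of leaving out control 3 and cKO 2 is given below.

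A second check concerned where the probe sets lie. Probe set numbers on this array follow genome order: for 96.4% of 21698 probe sets, the 10 neighbours on each side by number lay near the annotated gene, on its chromosome and at a median distance within 10 Mb (RefSeq gene table of GRCm38.p6). Of the 77 mitochondrial members, 72 passed this check. Of the 57 cytosolic members only 25 did. For 28 cytosolic members at least 80% of the neighbours lay on another chromosome, for Rps9 and Rpl41 far off on the same one, and for Rps12 and Rps4x the place was unclear. Ribosomal protein genes have many processed copies in the genome, and a probe set placed at a copy cannot be told apart here from one that reads the parent gene. Results are therefore given with the brightest probe set of each gene and, where it matters, with only probe sets near their gene, which leaves 51 cytosolic and 76 mitochondrial members.

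All values are deposited log2 levels, and a change is the mean of the 3 cKO arrays minus that of the 3 controls, ± SE from limma. Adjusted p is limma's, by Benjamini-Hochberg over all 19938 genes, and a gene is said to rise or fall at an adjusted p under 0.05. By this rule 12.9% of all genes changed, 5.52% upward and 7.42% downward. The median change over all genes was −0.01.

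Cytosolic ribosomal protein genes were slightly higher on the cKO arrays as a set, while single genes hardly passed the test. The change was above 0 for 52 of 57, below 0 for 4 and exactly 0 for Rpl10l, compared with 46.7% of all genes above 0. The median change was 0.13, a 1.10-fold difference, and the middle of the distribution ran from 0.07 (lower quartile) to 0.20 (upper quartile). Only 1 of 57 passed the threshold, Rpl12, which is 1.75% against 12.9% of all genes. In 24 of 57 genes (42.1%) all 3 cKO arrays lay above all 3 controls, against 14.3% of all genes, and in none did they lie below, against 18.3%. Among genes above the median level, 23 of 52 members (44.2%) lay above all controls, against 20.1% of all such genes. Without an adjustment 12 of 57 genes had p under 0.05, all of them higher in cKO, beside 26.6% of all genes in either direction. With only probe sets near their gene 46 of 51 were above 0, the median was 0.15, 21 (41.2%) lay above all controls, and Rpl12 alone passed.

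**Figure D1:**
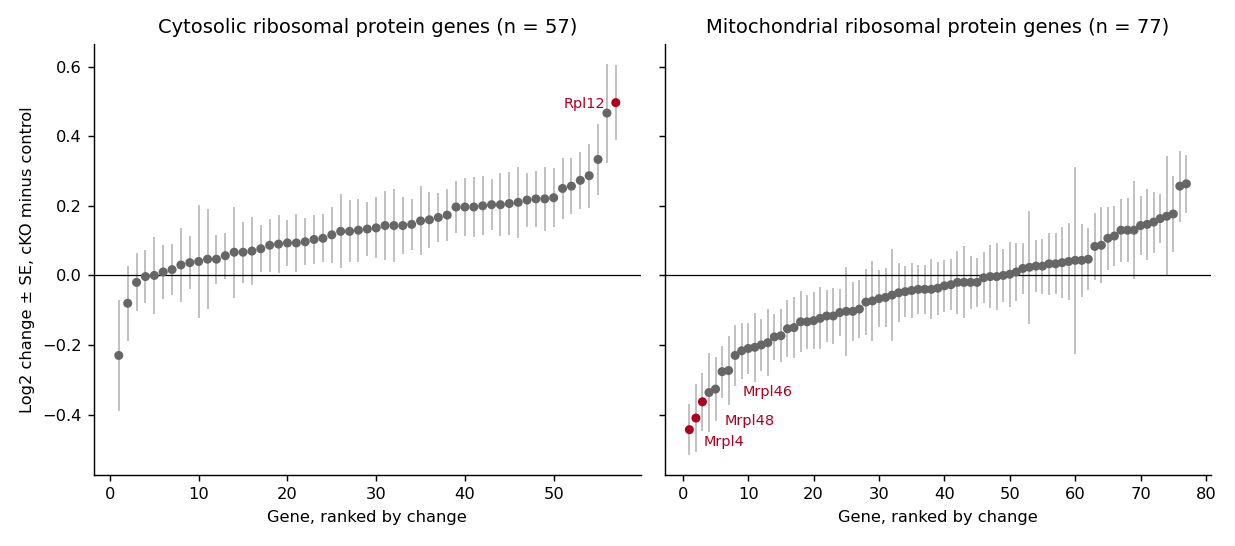
Log2 change (cKO minus control, y axis, with SE bars, n = 3 arrays a group) of each cytosolic (left) and mitochondrial (right) ribosomal protein gene, ranked by change. Red points passed an adjusted p of 0.05: Rpl12 among 57 cytosolic genes, and Mrpl4, Mrpl48 and Mrpl46 among 77 mitochondrial genes. Most cytosolic points lie above 0, and the mitochondrial points lie on both sides.

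Rpl12 encodes a protein at the base of the large subunit's stalk, where translation factors dock. Its level was 7.88, 8.17 and 7.89 on the control arrays and 8.59, 8.41 and 8.43 on the cKO arrays. The control levels are near the array medians (7.73 to 7.84). They are far below the mean of the cytosolic genes on controls (11.31 to 11.44). How well the only probe set of Rpl12 reads its mRNA was not tested. The cKO arrays were all above the controls, by 0.50 ± 0.11 (1.41-fold, adjusted p = 0.0301). The call depended on single arrays: it was kept without control 2 or without cKO 2, and lost when any of the other 4 was left out (adjusted p up to 0.106) and without both control 3 and cKO 2 (0.123). It was also lost with each array centred on its median (0.063) and after quantile normalization (0.0687).

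The next largest differences missed the threshold. Rps3a1, of the small subunit, read 9.74, 10.28 and 10 in controls and 10.49, 10.54 and 10.39 in cKO, a difference of 0.47 ± 0.14 (adjusted p = 0.088). Its only probe set was placed on another chromosome. Rps21, also of the small subunit, read 10.07, 10.32 and 10.01 against 10.40, 10.51 and 10.49, 0.33 ± 0.10 (adjusted p = 0.0872). Both pairs of groups were separate, with control 2 closest to the cKO arrays. Rpl22, a large subunit protein with known roles in lymphocyte development, read 9.94, 9.95 and 9.69 against 10.16, 10.14 and 10.14, 0.29 ± 0.09 (adjusted p = 0.102). Here control 3 was the low array, and the cKO arrays agreed within 0.02. Rps21 and Rps3a1 passed when control 2 was left out.

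Rps9 and Rpl8 lie just behind. Rps9 read 11.63, 11.67 and 11.46 in controls and 11.85, 11.83 and 11.90 in cKO, 0.27 ± 0.08 (adjusted p = 0.0856). Its dimmer probe set, which is the one near the gene, gave 0.25 ± 0.12 with an adjusted p of 0.264. Rpl8, whose protein lies near the peptidyl transferase centre, read 11.72, 11.87 and 11.75 against 11.95, 12.11 and 12.05, 0.26 ± 0.08 (adjusted p = 0.0984). Rpl8 and Rps9 were among the genes that passed under a trended variance model, and Rpl8 after quantile normalization.

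**Figure D2:**
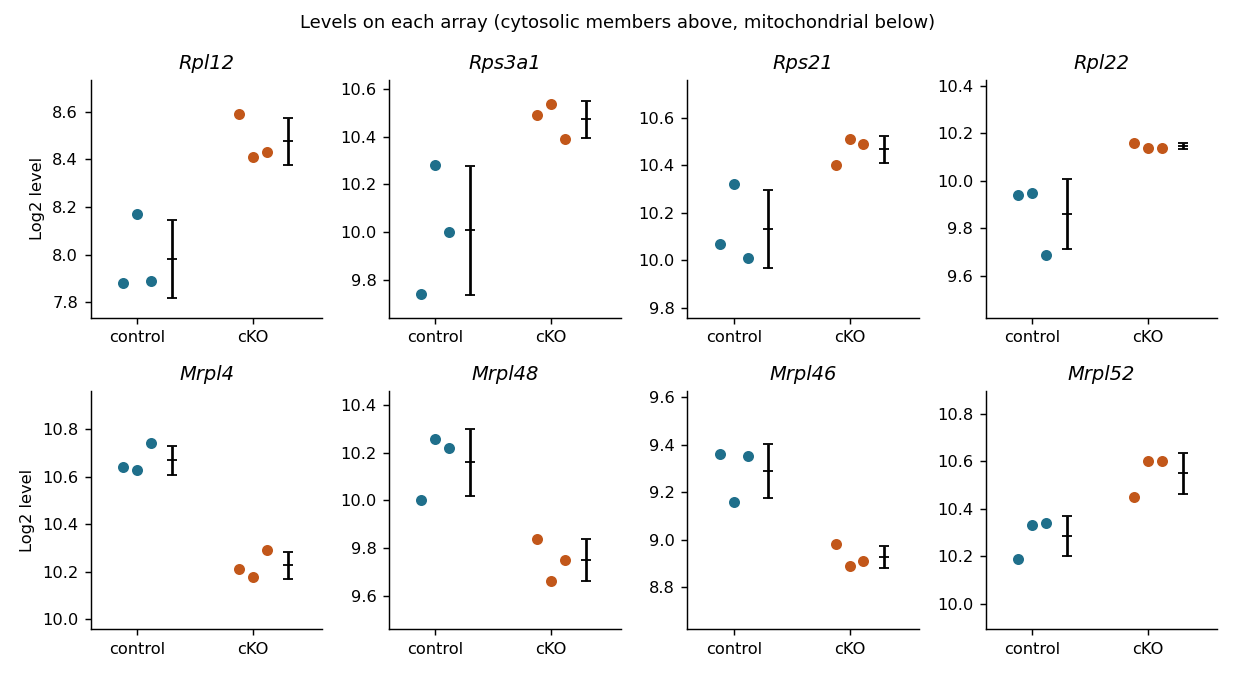
Log2 level on each array (points, y axis) of 4 cytosolic genes (above) and 4 mitochondrial genes (below), with group mean and SD (bars, n = 3). In all 8 genes the control and cKO arrays do not overlap. Rpl12, Mrpl4, Mrpl48 and Mrpl46 passed the threshold and the other 4 did not. Each panel has its own y range, which does not start at 0.

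The lean above 0 was present in both cytosolic subunits. All 22 small subunit genes had a change above 0, with a median of 0.14, and 9 (40.9%) had all cKO arrays above the controls. Of the 35 large subunit genes 30 were above 0, the median was 0.12, and 15 (42.9%) had all cKO arrays above the controls. The share of all genes was 14.3%. With only probe sets near their gene the small subunit count was 20 of 21, since Rps4l then differed by −0.31 (adjusted p = 0.286). The genes with no sign of a difference included Rps6, the target of S6 kinases, at 13.10, 13.04 and 13.00 in controls and 13.04, 13.11 and 13.13 in cKO (0.05, adjusted p = 0.733). Genes of middle level within the set had the largest shift: in 3 bands of 19 genes ordered by mean level over all arrays the median change was 0.13, 0.20 and 0.09 from the lowest to the highest band.

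No cytosolic gene fell. The lowest change was that of Rpl32l, an Rpl32-like gene, at 7.89, 8.45 and 8 in controls and 7.95, 7.73 and 7.97 in cKO (−0.23 ± 0.16, adjusted p = 0.43). The difference came mainly from control 2. Rpl30 differed by −0.08 (adjusted p = 0.702) and Rpl21 by −0.02 (0.912). Rpl26, a large subunit protein known for binding p53 mRNA, varied more than any other cytosolic gene within its groups, at 11, 11.06 and 11.22 in controls and 11.35, 10.78 and 11.27 in cKO, where cKO 2 was the lowest of all 6 arrays.

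Paralogs of the standard proteins were looked at separately. Rpl3l, known from heart and muscle, differed by 0.09 (adjusted p = 0.533), Rpl39l, known from testis, by 0.05 (0.878), and Rpl10l, also a testis paralog, by 0.00 beside 0.10 (0.427) for Rpl10. Rpl7l1 differed by 0.21 (adjusted p = 0.21) beside 0.25 (0.125) for Rpl7, and the p53 target Rps27l by 0.14 (0.389). Rps4x differed by 0.20 (adjusted p = 0.216). None of them passed.

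The members were read from several probe sets in 36 cytosolic genes, 186 probe sets in all. In 31 of these genes every probe set changed in 1 direction. The exceptions were Rpl21, Rpl28, Rpl7a, Rps4l and Rps6. The median range between probe sets of a gene was 0.03, and the largest 0.38, in Rps4l. Probe sets of a gene may share probes, so they are not independent readings.

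Genes of the mitochondrial ribosome did not share the cytosolic shift. Their changes lay on both sides of 0, at a median of −0.04 (1.03-fold), with 28 of 77 above 0, 48 below and Mrps21 at exactly 0. No gene rose, and 3 fell: Mrpl4, Mrpl48 and Mrpl46, all of the large subunit. That is 3.90% of the 77, against 7.42% of all genes falling. In 18 of 77 genes (23.4%) all cKO arrays lay below all controls, against 18.3% of all genes, and in 3 (3.90%) they lay above, against 14.3%. Separate groups were more frequent among brighter genes. Of all genes above the median level, 24.5% lay below and 20.1% above all controls. For the 75 mitochondrial members among them the shares were 24% and 4%, so the share below was that of genes of like level. Over all 77 genes, 12 were lower and 2 higher at an unadjusted p under 0.05.

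Mrpl4 encodes the mitochondrial relative of bacterial ribosomal protein L4, which lines the exit tunnel for the new protein. Its level was 10.64, 10.63 and 10.74 on the control arrays and 10.21, 10.18 and 10.29 on the cKO arrays. The groups were far apart beside their spread, and Mrpl4 fell by 0.44 ± 0.07 (1.36-fold, adjusted p = 0.0114). Its call was kept when any single array was left out, with adjusted p of at most 0.0466, and lost without both control 3 and cKO 2 (0.088).

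Mrpl46 and Mrpl48 encode large subunit proteins with no bacterial counterpart. Mrpl46 read 9.36, 9.16 and 9.35 in controls and 8.98, 8.89 and 8.91 in cKO, and fell by 0.36 ± 0.08 (adjusted p = 0.0374). Mrpl48 read 10, 10.26 and 10.22 against 9.84, 9.66 and 9.75, and fell by 0.41 ± 0.10 (adjusted p = 0.0426). The groups were separate in both. Each call was kept in only 1 of the 6 fits that leave out an array, Mrpl46 without control 2 and Mrpl48 without control 1, with adjusted p up to 0.124 and 0.139 in the others, and neither was kept without both control 3 and cKO 2 (0.201 and 0.217). The only probe set of Mrpl48 was placed on another chromosome than the gene, so its fall may not be that of the gene itself, which was not tested.

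Further large subunit genes were lower without passing. Mrpl47 read 8.90, 9.09 and 8.77 in controls against 8.46, 8.56 and 8.73 in cKO (−0.34 ± 0.11, adjusted p = 0.118). Mrpl27 read 10.02, 10.20 and 10.12 against 9.84, 9.84 and 9.83 (−0.28 ± 0.08, adjusted p = 0.0628). That probe set was placed on another chromosome. The probe set of Mrpl27 near its gene read 8.78, 9 and 9.03 against 8.57, 8.47 and 8.69 (−0.36 ± 0.10, adjusted p = 0.0705). Both probe sets thus had separate groups. Mrpl41 differed by −0.11 (adjusted p = 0.378) on its brightest probe set. On the one near its gene it read 8.79, 8.79 and 8.85 in controls and 8.54, 8.44 and 8.58 in cKO, and passed, falling by 0.29 ± 0.07 (adjusted p = 0.049). With only probe sets near their gene the falling genes were therefore Mrpl4, Mrpl46 and Mrpl41.

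The few mitochondrial genes that leaned the other way did so modestly. Mrpl52, a large subunit protein without a bacterial relative, read 10.19, 10.33 and 10.34 in controls and 10.45, 10.60 and 10.60 in cKO (0.26 ± 0.08, adjusted p = 0.0984). Mrpl50 read 10.26, 10.22 and 10.30 against 10.36, 10.70 and 10.49 (0.26 ± 0.10, adjusted p = 0.17). Mrpl14 was the other gene with separate groups (0.16, adjusted p = 0.201). All 3 belong to the large subunit.

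The small mitochondrial subunit had no call among 29 genes, a median of −0.02, and 6 genes (20.7%) with all cKO arrays below the controls, close to the 18.3% of all genes. The lowest was Mrps36, at 10.17, 10.13 and 10.36 in controls and 9.94, 9.80 and 9.94 in cKO (−0.33 ± 0.09, adjusted p = 0.0696). Its protein, named for the ribosome, is now known as a part of the 2-oxoglutarate dehydrogenase complex. The large subunit had a median of −0.06 over 48 genes, with 12 (25%) below and 3 (6.25%) above all controls. Of all genes above the median level, 24.5% lay below and 20.1% above. Mrps30 and Mrps18a carry small subunit names although their proteins sit in the large subunit, and differed by −0.00 (adjusted p = 0.988) and −0.22 (0.148). Mrps18b, a related small subunit protein, differed by 0.15 (adjusted p = 0.332), and Mrps18c by −0.13 (0.402).

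Genes with and without a bacterial counterpart were also set side by side. The 47 with one had a median change of −0.02, with 1 call (Mrpl4, 2.13%) and 11 (23.4%) below all controls. The 30 without one had a median of −0.05, with 2 calls (Mrpl46 and Mrpl48, 6.67%) and 7 (23.3%) below all controls. Of all genes, 7.42% fell and 18.3% lay below all controls. The difference between these groups was not tested.

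**Figure D3:**
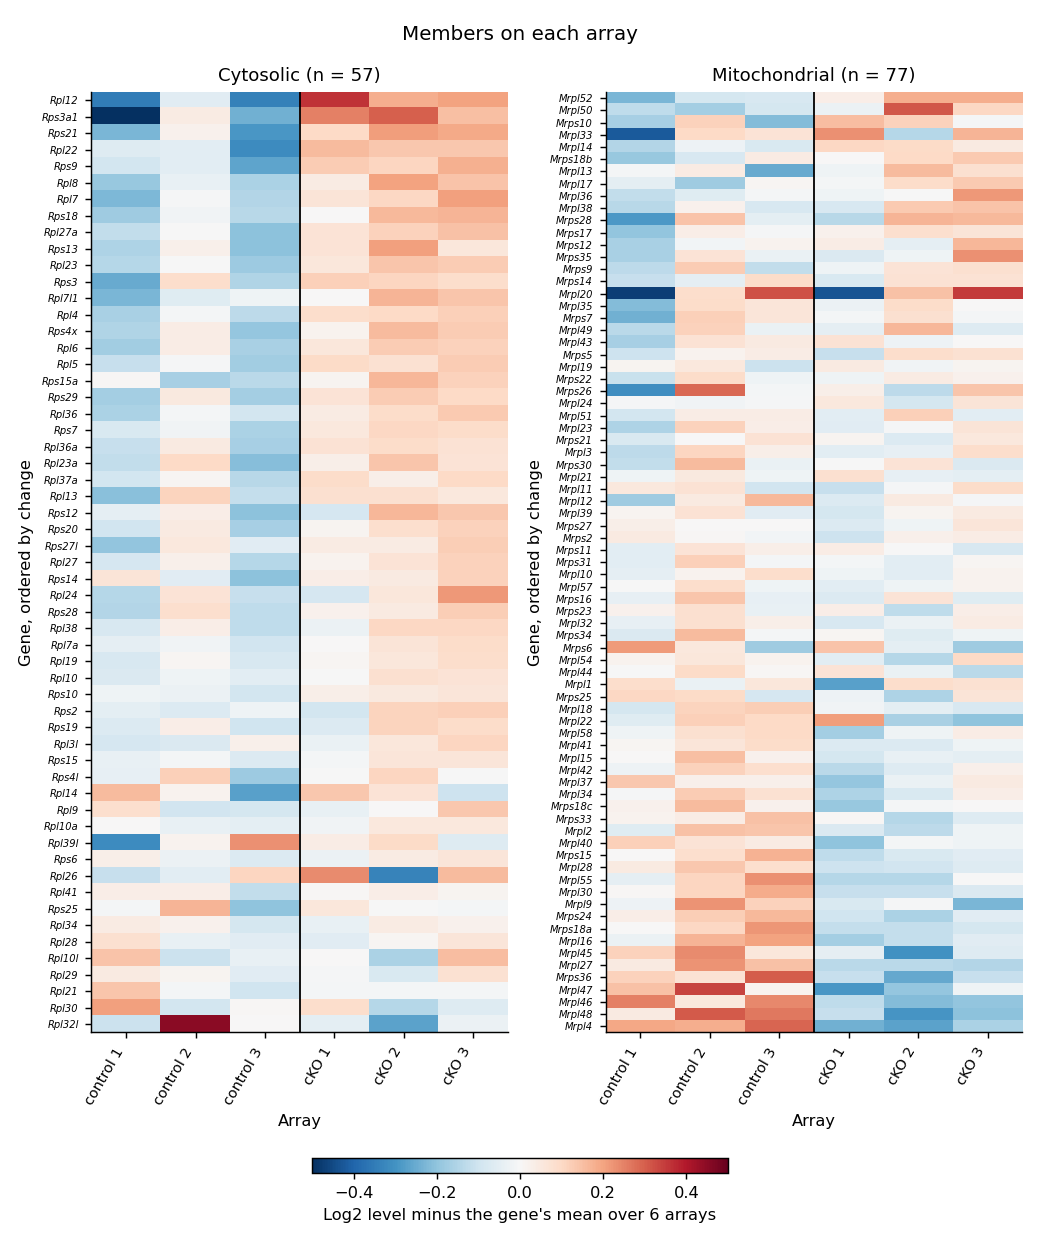
Log2 level of every cytosolic (left) and mitochondrial (right) ribosomal protein gene on each array, minus the gene's own mean over the 6 arrays (colour scale from −0.5 to 0.5), with genes ordered by change. The upper cytosolic rows turn from blue on controls to red on cKO arrays, while mitochondrial rows turn in both directions. Mrpl20 has its own pattern, low on control 1 and cKO 1.

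Mrpl20 had the largest spread within groups of all members, at 9.04, 9.60 and 9.83 in controls and 9.08, 9.66 and 9.86 in cKO. The values of arrays with the same number lay within 0.06 of each other, although over all genes such arrays did not deviate together. Mrpl33 was next, with control 1 at 9.04 and the other 5 arrays at 9.32 to 9.69 (0.17, adjusted p = 0.596).

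Set side by side on each array, the 2 ribosomes moved apart. The mean level of the 57 cytosolic genes was 11.34, 11.44 and 11.31 on the controls and 11.47, 11.50 and 11.53 on the cKO arrays, so that every cKO array lay above every control. That of the 77 mitochondrial genes was 9.68, 9.81 and 9.77 against 9.68, 9.70 and 9.74, which overlap. The mitochondrial mean minus the cytosolic mean was −1.66, −1.63 and −1.54 on controls and −1.80, −1.80 and −1.78 on cKO arrays. The size of this gap depends on the probes and has no meaning of its own, but its difference between groups, −0.18, is untouched by any shift of a whole array. The cKO arrays agreed closely (SD 0.00825) and the controls less so (SD 0.0664). After quantile normalization the gaps were −1.65, −1.60 and −1.48 against −1.81, −1.87 and −1.80. This is a description, since lists chosen with earlier results known are not tested here.

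**Figure D4:**
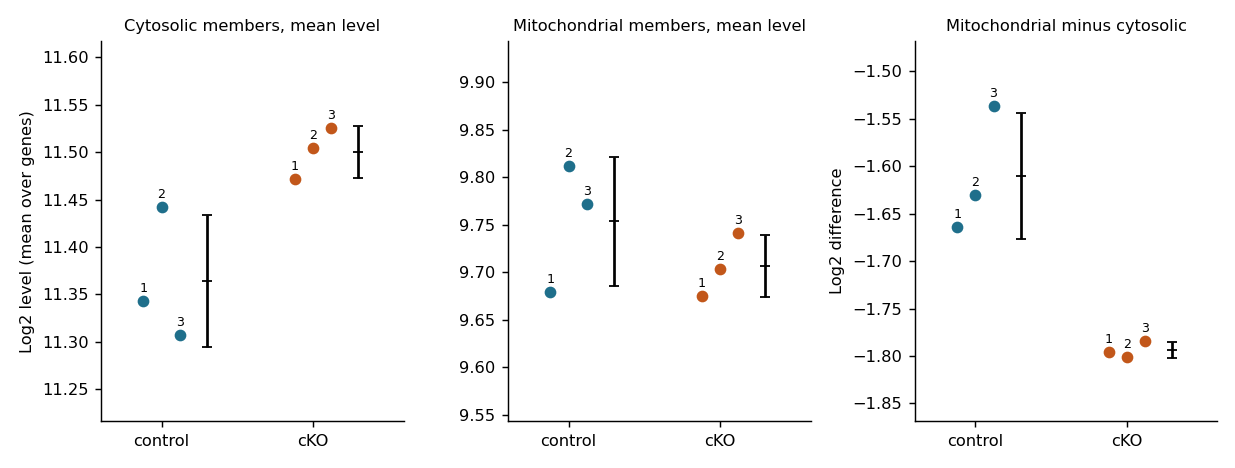
Mean log2 level of 57 cytosolic genes (left), of 77 mitochondrial genes (middle) and their difference (right, mitochondrial minus cytosolic) on each array, with array numbers beside the points and group mean and SD as bars (n = 3). The cytosolic means and the differences do not overlap between groups, and the mitochondrial means do. The y axes do not start at 0.

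The cytosolic median moved with the scaling of the arrays, and with centring the median over all genes moved down with it. With each array centred on its median, 45 of 57 cytosolic genes stayed above 0 with a median of 0.08. Of all genes, 37% were above 0 under that setting, at a median of −0.07. In 7 cytosolic genes (12.3%) all cKO arrays lay above the controls, near the 10% of all genes under that setting. After quantile normalization 54 were above 0, with a median of 0.23 and 38 (66.7%) separate, against 15.1% of all genes. Without control 3 and cKO 2, the arrays with the highest hepatocyte markers, 48 of 57 were above 0, the median was 0.11, and 26 (45.6%) lay above all controls against 21.7% of all genes. No member of either ribosome passed in that fit of 4 arrays, in which 1586 genes did. The mitochondrial median stayed below 0 in all these settings, as did the median over all genes. The epithelial marker list moved in the same direction as the cytosolic genes: 9 of 10 were above 0, the median was 0.20, its mean was 11.97 to 12.04 on controls and 12.12 to 12.28 on cKO arrays, and Krt19, Epcam and Krt8 rose (1 of the 10 markers without control 3 and cKO 2). The mesenchymal list did likewise, with 9 of 10 above 0, 0 called, and means of 8.01 to 8.29 against 8.37 to 9.17. Its median change was 0.61, with 7 of 10 genes above all controls and 1 below (14.3% and 18.3% of all genes). Of the 4 enteric neuron and glia markers 3 went the other way, 1 of them past the threshold, and 1 was above 0. The means of the 4 were 8.45 to 8.52 on controls and 7.89 to 8.10 on cKO arrays, with a median change of −0.30. The part of cell composition in the ribosomal differences was not tested, and in bulk RNA more cells of a type and more RNA per cell cannot be told apart.

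Ribosomal proteins whose symbols fall outside the rule were read as well. The acidic stalk genes Rplp0, Rplp1 and Rplp2 differed by 0.12, 0.19 and 0.14, Rpsa, also known as the laminin receptor, by 0.19, and Fau, the precursor of Rps30, by 0.03. All 5 were above 0 and none passed. Of the 4 measured mitochondrial ones, Dap3, Gadd45gip1 and Ptcd3 differed by −0.03, −0.05 and −0.05 and Chchd1 by 0.25 (adjusted p = 0.414).

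Factors that build the cytosolic ribosome included more genes past the threshold than its proteins, at the same median. Of 61 such genes 46 were above 0, the median was 0.13, 6 rose and none fell, which is 9.84% against 5.52% of all genes rising. In 21 (34.4%) all cKO arrays lay above the controls, against 14.3% of all genes. Imp3, of the U3 snoRNA complex that processes the small subunit's RNA, read 9.30, 9.43 and 9.22 in controls and 10.06, 10.24 and 10.08 in cKO, and rose by 0.81 ± 0.09 (adjusted p = 0.00279). Utp20, of the same early particle, read 8.69, 8.56 and 8.38 against 9.26, 9.38 and 9.37 and rose by 0.79 ± 0.10 (adjusted p = 0.0041). Both calls were kept under every alternative tried. Tsr1, a late factor of the small subunit, rose by 0.54 ± 0.08 (adjusted p = 0.00732), which was lost only without control 3 and cKO 2 (0.0565). The other 3, named after their values were seen, were Wdr75 (0.48, adjusted p = 0.0256), Nop16 (0.42, 0.0464) and the rRNA methyltransferase Dimt1 (0.49, 0.0498). The number rising was 3 or 4 with any 1 array left out and 2 without control 3 and cKO 2, where the median of the list was 0.05.

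Among the 14 genes of RNA polymerase I and its factors, which transcribe ribosomal RNA, only Polr1c rose (7.14%, against 5.52% of all genes). Polr1c encodes a subunit shared with RNA polymerase III. It read 9.67, 9.86 and 9.62 in controls and 10.22, 10.30 and 10.32 in cKO (0.56 ± 0.09, adjusted p = 0.00949), and was lost without control 3 and cKO 2 (0.0691). The median of the list was −0.01, and Polr1a and Taf1a differed by 0.34 (adjusted p = 0.0797) and 0.36 (0.0858). Of 33 cytosolic translation factors 28 were above 0 at a median of 0.10, and 1 rose (3.03%, against 5.52% of all genes). The sole call, Eif2s2, a subunit of the factor that brings the initiator tRNA, rose by 0.29 ± 0.07 (adjusted p = 0.0413). That call was lost whenever an array was left out (up to 0.136) and without control 3 and cKO 2 (0.169).

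**Figure D5:**
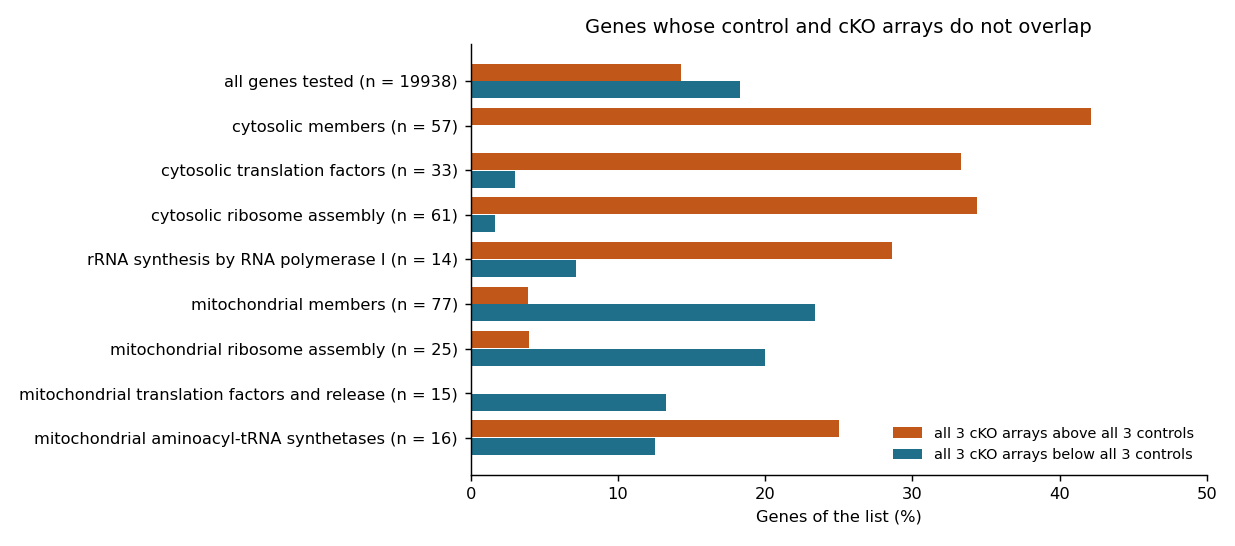
Share of genes (x axis, in %) whose 3 cKO arrays all lie above (orange) or all below (blue) the 3 controls, for all genes tested, the 2 sets of ribosomal protein genes and the lists of related genes (number of genes in brackets). Orange exceeds blue for the cytosolic lists, at 42.1% against 0% for the cytosolic ribosomal proteins. Blue exceeds orange for the mitochondrial ribosome, its assembly and translation factors, and also for all genes tested (18.3% against 14.3%). Orange exceeds blue for the mitochondrial aminoacyl-tRNA synthetases (25% against 12.5%).

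The mitochondrial translation genes had few calls but some of the largest changes of this group. Of 25 mitochondrial ribosome assembly genes, 13 were above 0 and the median was 0.01, with 2 falling (8%, near the 7.42% of all genes). Nsun4, a methyltransferase that modifies the small subunit's rRNA and guides subunit joining, read 10.41, 10.94 and 10.63 in controls and 9.21, 9.05 and 8.93 in cKO, and fell by 1.60 ± 0.15 (adjusted p = 0.00142). Its groups lay further apart than those of any ribosomal protein gene, and the call was kept in every alternative. Trub2, a pseudouridine synthase homolog, fell by 0.46 ± 0.11 (adjusted p = 0.0468), which was lost in 5 of 6 fits with an array left out (up to 0.145) and without control 3 and cKO 2 (0.225).

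Iars2, the mitochondrial isoleucyl-tRNA synthetase, read 11.88, 11.44 and 11.64 in controls and 10.40, 10.53 and 10.65 in cKO and fell by 1.13 ± 0.13 (adjusted p = 0.00323), again under every alternative. The other 15 mitochondrial synthetases held 1 call, Fars2, which rose by 0.29 (adjusted p = 0.0468) and was lost in each fit with an array left out (up to 0.15) and without control 3 and cKO 2 (0.202). None of 15 mitochondrial translation factors passed. The closest were Taco1, which activates translation of a cytochrome oxidase subunit (−0.33, adjusted p = 0.0511), and the initiation factor Mtif3 (−0.32, 0.0579). Among 17 cytosolic synthetases Wars rose by 0.41 (adjusted p = 0.0177) and Vars fell by 0.65 (0.0144). Calls made up 11.8% of the cytosolic and 12.5% of the mitochondrial synthetases, near the 12.9% of all genes. The call of Wars was lost without control 2, control 3 or cKO 3 (up to 0.074) and without control 3 and cKO 2 (0.0698), and that of Vars without control 2 or control 3 (up to 0.0602).

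Of 24 regulators of ribosomal and mitochondrial genes, 2 fell (8.33%, near the 7.42% of all genes) and none rose. Ppargc1a encodes PGC-1α, a coactivator of mitochondrial biogenesis. It read 10.56, 10.27 and 10.50 in controls and 10, 9.65 and 9.73 in cKO, and fell by 0.65 ± 0.13 (adjusted p = 0.02). Its groups were separate, but leaving out control 1, control 3 or cKO 3 ended the call (adjusted p up to 0.0782), as did leaving out both control 3 and cKO 2 (0.119). Mycn fell by 0.46 ± 0.12 (adjusted p = 0.0489), lost whenever an array was left out (up to 0.146) and without control 3 and cKO 2 (0.157). Myc, a driver of ribosome genes, read 10.24, 9.97 and 9.63 in controls and 10.36, 10.42 and 10.40 in cKO (0.45 ± 0.15, adjusted p = 0.12), a gene named after its values were seen.

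The differences were also split by promoter feature. Cytosolic genes with the pyrimidine run had a median change of 0.11 (25 genes, 10 above all controls) and those without it 0.15 (21 genes, 10 above). Mitochondrial genes with the run had a median of −0.06 (16 genes, 4 below all controls) and those without it −0.03 (52 genes, 12 below). With CCGGAAG the cytosolic median was 0.10 and without it 0.14, and the mitochondrial medians were −0.02 and −0.04. Mitochondrial genes with the GATA motif had a median of −0.08 (11 genes, 5 below all controls) and those without it −0.04 (57 genes, 11 below). Cytosolic genes with it had a median of 0.13 (5 genes, 1 above all controls), and those without it also 0.13 (41 genes, 19 above). Of all genes, 14.3% lay above all controls and 18.3% below. These splits were not tested.

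The precision of these comparisons was limited by 3 arrays a group. The median SE of a change was 0.08 for the cytosolic and 0.09 for the mitochondrial genes, against 0.105 over all genes, and the smallest change called among all genes was 0.26. Most members differed by less than that. Of the 75 members with a change of 0.1 to 0.5 in size, 4 were called (5.33%), beside 7.22% of all genes with changes of that size.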

How the data were processed

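Per the series text and labels, RNA was labelled by a whole-transcript sense protocol and the authors processed the arrays with dChip. The deposited values are log2 levels, 1 per probe set and array (35512 probe sets, values 0 to 14.25, array medians 7.73 to 7.84). The log base was read from the values. The sources used here give no dChip version, background correction or normalization, and no detection calls were used, so dim levels can hide changes. Of the probe sets, 21789 carry 1 gene in the platform annotation, 1621 several and 12102 none. Probe sets with 1 gene were used, the one with the highest mean per gene, which gave 19938 genes. No member was listed at 0 and none was filtered out.

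Groups came from the source names of the samples. Levels were compared with limma 3.58.1 (lmFit, eBayes, two-sided) in R 4.3.3, without covariates, further normalization or a filter, and Benjamini-Hochberg adjusted p-values (19938 genes) were read at 0.05. The procedure was also run on simulated data with known changes, all larger than that of any member. That run does not show how well changes of the members' size are found. The members and gene lists were chosen with earlier results of these data known, and no list was tested as a whole. Named genes are Gata4, Gata6, each member past the threshold, the 3 largest rises and falls and the 2 largest spreads per ribosome, paralogs, proteins outside the symbol rule, and the 3 genes with the smallest adjusted p of each related list. Others, among them Rps9, Rpl8, Mrpl27, Mrpl41, Mrpl14, Rps6 and Myc, were named after their values were seen. Alternatives were quantile normalization, median centring, an offset of 32, 2 filters on dim genes, array weights, a trended eBayes with robust fitting, a replicate block, averaged probe sets, changed member lists, and arrays left out. The placement of probe sets was checked, and a fit on those near their gene added, after the data were seen.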

Additional observations from a re-analysis of the deposited data

How the results depend on the processing

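Array quality and number limit these results, and depth has no counterpart here. The direction of the median was the same under every alternative for both ribosomes, above 0 for the cytosolic and below 0 for the mitochondrial genes. The median over all genes was below 0 in every setting as well. The mitochondrial median of −0.04 came close to 0 without control 2 (−0.0033, with 37 of 77 genes above 0), and was −0.07 without control 1, the ends of its range with an array left out. The median over all genes was −0.0033 without control 2 and −0.0283 without control 1. Without cKO 1 the mitochondrial median was −0.0183, above the −0.0233 of all genes. The cytosolic median of 0.13 was 0.23 after quantile normalization and 0.08 with centred arrays, and 0.10 to 0.19 with an array left out. The median over all genes was −0.01 after quantile normalization and −0.07 with centred arrays. The mitochondrial minus cytosolic difference of medians, −0.17, was −0.26 after quantile normalization. Counts of calls were less stable. The cytosolic count of 1 rising gene was 0 with centred arrays, 0 without control 3 and cKO 2, 3 with a trended and robust eBayes, 5 without the genes below the median level, and 0 to 3 with an array left out. The mitochondrial count of 3 falling genes was 1 after quantile normalization, 5 without the dimmest tertile, 5 without the genes below the median level (where 1 also rose), 5 with the trended model, 0 without control 3 and cKO 2, and 1 to 2 with an array left out. The 2580 genes changed overall were 1586 without control 3 and cKO 2 and 1482 to 2281 with an array left out. With the replicate number as a block, 1449 genes passed, of them 0 rising cytosolic and 1 falling mitochondrial gene (Mrpl4). Same-numbered arrays did not deviate together (correlations −0.0153, −0.425 and −0.184). With 3 arrays a group, and control 3 and cKO 2 apart in hepatocyte signal, these values cannot settle whether samples were paired. No label states a pairing, so the main fit used none. With only probe sets near their gene, added after seeing the data, 2570 genes passed, 1 cytosolic rise and 3 mitochondrial falls among them. The cause of these differences was not tested.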
